A study of Rattus norvegicus with 36 samples.

Results

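The comparison described here is hypoxia against normoxia in H9C2 cells carrying the Trim A mimic, which are the 6 libraries labelled Trim 1 out of 33 libraries whose counts were used and 36 samples labelled. H9C2 is an established line of rat cardiac myoblasts. All 6 cultures received the Trim A mimic at 25 nmol/L for 24 h. For a further 24 h, 3 of them were kept in hypoxia in serum-free, low-glucose medium and 3 in normoxia under normal conditions in fresh medium, so oxygen, serum and glucose changed together and their effects cannot be told apart. No gene was altered in either group. The hypoxia response under the mimic control is not analysed here, so nothing below separates the response to hypoxia from the mimic, which both groups carried. Poly-A RNA was sequenced without strand information. The labels number 3 replicates a group and do not say whether they came from separate cultures, so p-values measure the spread between these libraries only.

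miR-125b is a microRNA that is abundant in heart. It pairs with messenger RNAs mainly through its seed, and isomiRs are natural forms of 1 microRNA that differ in a few bases at an end. Cells short of oxygen stabilise the HIF-1α subunit, which enters the nucleus, binds HIF-1β and switches on genes for glucose uptake, glycolysis, pH control, blood vessel growth and removal of mitochondria. Withdrawal of serum removes growth factors and lipoproteins, and proliferating myoblasts then leave the cell cycle.

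The mimics that enter the comparisons are shown because they differ only at the 3′ end. The miR-125b sequence is that of RefSeq (GRCr8, *Mir125b2*, chr11:29732588-29732609, plus strand). The other 3 were made from it by adding or removing 3′ bases as the names say. Capitals mark the seed, bases 2 to 8 from the 5′ end, which all 4 share.
miR-125b: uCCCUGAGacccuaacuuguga
Plus A: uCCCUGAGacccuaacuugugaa
Trim A: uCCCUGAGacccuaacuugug
Trim AG: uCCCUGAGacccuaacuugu

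Values are in CPM, counts scaled to a common library size with factors from the trimmed mean of M-values. Up- or down-regulation was called where edgeR's quasi-likelihood test gave an adjusted p (Benjamini-Hochberg over all genes tested) under 0.05 together with a change of at least 1.5-fold. Total counts ran from 28361142 to 29781136 in normoxia and from 31064222 to 34505916 in hypoxia. Of 14973 genes tested, 3969 (26.5%) were called, 1795 (12%) up-regulated and 2174 (14.5%) down-regulated in hypoxia, and the median log2 fold change of all genes was 0.02. Changes of at least 4-fold were called up for 150 genes and down for 236. The libraries of the groups did not overlap in 8599 genes (57.4%).

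Hypoxia replicate 1 stood apart from hypoxia replicates 2 and 3. To compare libraries, gaps in log2 CPM were squared, averaged over genes and square-rooted. Hypoxia replicate 1 lay on average 0.489 from the hypoxia libraries of miR-125b and 0.502 from those of Plus A. Its mean distance from the other hypoxia libraries of Trim A was larger, at 0.548. Hypoxia replicates 2 and 3 were nearest to their own group (0.522 and 0.520), with 0.567 and 0.573 to hypoxia miR-125b. The median level of genes of at least 5000 bases relative to genes of up to 1500 bases was 0.12 (log2) in hypoxia replicate 1, -0.34 and -0.28 in hypoxia replicates 2 and 3, and 0.14, 0.14 and 0.23 in normoxia. Mitochondrial genes took 3.41% of counts in hypoxia replicate 1 and 5.01% and 4.47% in the other two, against 3.41% to 3.57% in normoxia. Short genes were called up more often than down (16.1% against 8.98% of 4397 genes) and long genes the reverse (6.53% against 21.2% of 1639 genes). The part of gene length in each result was not tested, and values with the length trend removed or without that library are given beside a number of the results.

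**Figure D1:**
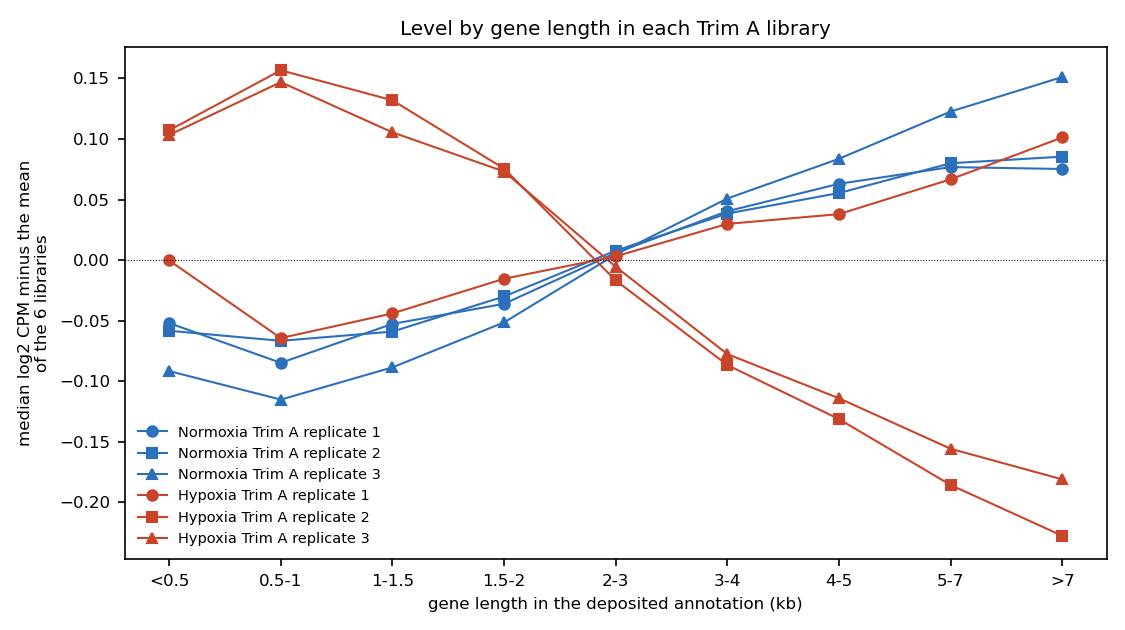
Median log2 CPM of genes in each class of gene length (kb, horizontal axis), relative to the mean of the 6 libraries (vertical axis, log2), with 1 line per library. Hypoxia replicate 1 (red circles) runs with the 3 normoxia libraries (blue) in the long classes, while hypoxia replicates 2 and 3 fall; the long-minus-short difference is 0.12 in the first and -0.34 and -0.28 in the others.

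HIF targets outside glycolysis were the list with the largest number of up-regulated genes and also the list with the most genes tested. Of its 35 members 34 were tested, 17 were up-regulated (50% against 12% of all genes) and 2 were down-regulated (5.88% against 14.5%). The share up-regulated was the same as in the NRF2 and metallothionein list, which counts *Mt1a* and *Mt2A*, called from very few normoxia reads. The median log2 fold change was 0.82. *Bnip3*, a receptor for the removal of mitochondria, was at 39.9, 35.9 and 38.6 CPM in normoxia and 152, 191 and 186 CPM in hypoxia, a 4.62-fold increase (log2 fold change 2.21 ± 0.11 (SE), adjusted p = 1.54e-06). *Ankrd37*, an ankyrin-repeat protein and a textbook HIF-1 target, rose from 0.583, 1.21 and 1.41 to 5.79, 4.93 and 5.40 CPM (log2 fold change 2.33 ± 0.29 (SE), adjusted p = 2.69e-04). All 3 hypoxia libraries lay above all 3 normoxia libraries for both genes, and hypoxia replicate 1 was the lowest of its group for *Bnip3* and the highest for *Ankrd37*. *Kdm3a*, a demethylase of histone H3 that needs oxygen, rose from 37.0, 38.8 and 37.1 to 103, 97.5 and 106 CPM (log2 fold change 1.44 ± 0.07). *Ddit4*, an inhibitor of mTORC1, rose from 24.9, 28.3 and 24.03 to 68.8, 59.8 and 66.8 CPM (log2 fold change 1.34 ± 0.09). *Vegfa*, which encodes the main growth factor for blood vessels, was at 260.5, 226 and 266 CPM in normoxia and 635, 519 and 546 CPM in hypoxia (2.26-fold, adjusted p = 4.54e-05). The groups were fully separate for these 3 genes as well.

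Increases were also found for *Ppp1r3c*, a glycogen-targeting subunit of protein phosphatase 1 (log2 fold change 1.37), the carbonic anhydrase *Ca9* (1.14), the mitochondrial protein gene *Higd1a* (1.10), *Hilpda*, which limits breakdown of lipid droplets (0.97), the histone demethylase *Kdm4b* (0.96), the vasodilator peptide gene *Adm* (0.91) and the collagen prolyl hydroxylase *P4ha1* (0.85). *Ndrg1* rose as well (1.29), from a level of only 0.991 ± 0.219 CPM (SD, n = 3). *Fam162a* was called (1.08), but it shares its locus with genes on the other strand, and unstranded reads of overlapping genes cannot be told apart. *Ak4*, a mitochondrial adenylate kinase, had 0 counts in all 3 normoxia libraries and 21, 21 and 15 counts in hypoxia, at least 16.2-fold higher against a floor of 3 counts over the group. *Ak4* passed the filter on low counts through its hypoxia libraries alone. *Rora*, a nuclear receptor, was called at 0.731 ± 0.0632 against 1.27 ± 0.197 CPM (SD, n = 3, adjusted p = 0.0319), a call lost in 8 of the alternatives tried (adjusted p = 0.0504 to 0.106). *Bnip3l*, the relative of *Bnip3*, was at 53.5, 56.1 and 56.9 CPM in normoxia and 65.0, 66.5 and 65.9 CPM in hypoxia, a difference under the 1.5-fold limit.

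*Tgfb3*, a transforming growth factor, fell from 517, 579 and 500.2 to 113, 102 and 102 CPM (5.04-fold, adjusted p = 6.47e-07). It did not overlap between groups. *Lox*, which cross-links collagen, was at 907 ± 21.6 CPM in normoxia and 629 ± 110.3 CPM in hypoxia (SD, n = 3) and was called lower only without hypoxia replicate 1 (log2 fold change -0.68).

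**Figure D2:**
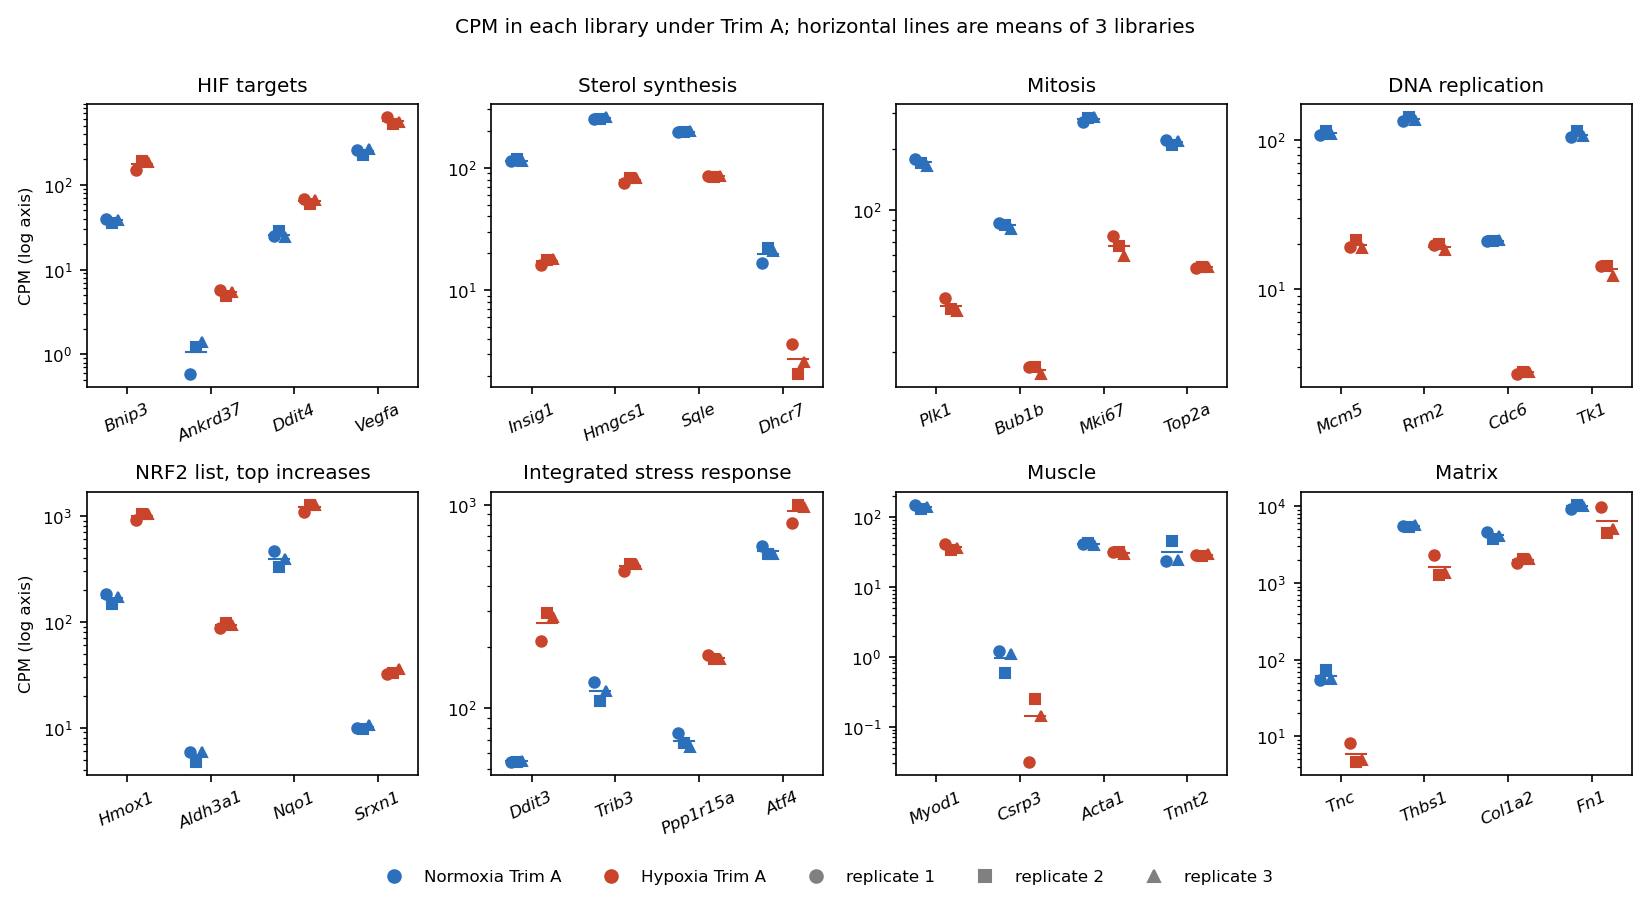
CPM of 32 named genes in each of the 6 libraries (log axis) in 8 panels by list or role, with normoxia in blue, hypoxia in red, a marker shape per replicate and a line at each mean. The groups are separate for all genes shown but *Tnnt2*, whose hypoxia libraries lie within the normoxia range, and *Fn1*, where hypoxia replicate 1 does. In the panel titled NRF2 list, top increases, *Hmox1* and *Aldh3a1* are top increases from outside that list.

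Of 10 genes of the oxygen sensor, 6 were tested and 1 was called, as up-regulated (16.7% against 12% of all genes). *Vhl*, the ubiquitin ligase subunit that marks HIF-α for breakdown, was up-regulated, from 55.7, 54.5 and 50.8 to 85.7, 89.7 and 89.3 CPM (log2 fold change 0.72 ± 0.07 (SE), adjusted p = 9.12e-05). *Arnt2*, a relative of the HIF-1β gene, was at 49.9, 58.5 and 54.7 CPM in normoxia and 49.5, 35.5 and 35.3 CPM in hypoxia. The groups did not overlap, and *Arnt2* missed the fold limit with all libraries (adjusted p = 0.0257) and was called lower without hypoxia replicate 1 (log2 fold change -0.62, adjusted p = 3.94e-05). *Hif1a* was at 119.8, 128 and 135 CPM in normoxia and 121, 124.6 and 124.7 CPM in hypoxia, and the groups overlapped (adjusted p = 0.633). HIF-1α is controlled largely at the protein level, which was not measured. *Hif1an*, the asparaginyl hydroxylase that inhibits HIF-1α and a gene studied as a miR-125b target, was at 17.2, 18.0 and 19.1 CPM in normoxia and 15.4, 17.3 and 17.6 CPM in hypoxia (log2 fold change -0.11 ± 0.10, adjusted p = 0.373). Per kb of gene length, *Hif1a* stood at 32.0 ± 1.88 CPM in normoxia and *Epas1*, which encodes HIF-2α, at 0.0148 ± 0.0197 CPM (SD, n = 3), so that the *Epas1* level was close to that of single reads. Among the prolyl hydroxylases that mark HIF-α, *Egln2* was at 38.6 ± 2.53 CPM per kb in normoxia and 40.7 ± 2.27 in hypoxia. *Egln3* did not exceed the level of a few reads. *Egln1*, of the same family, had no match among the deposited gene symbols, so its level is not known here.

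Windows around the RefSeq gene starts (GRCr8, 250 bases before to 50 after) were searched on both strands for the letters ACGTG, the core of the hypoxia response element. The core was present in 19.3% of 33469 promoters, in 25.4% of the 9315 promoters of tested genes, in 26.0% of the up-regulated, 22.3% of the down-regulated and 25.9% of the remaining tested genes. Of 28 promoters of HIF-list genes 18 held it, and of the 16 among them that were called 10 did. Matches in 4 up-regulated genes are shown with the core in capitals, read on the gene's strand. A match describes letters and not a bound site.
Bnip3, chr1:203155046-203155070, minus strand: cacgcgccgcACGTGccacacgcgc
Ankrd37, chr16:53001475-53001499, plus strand: tccgggctacACGTGtcactgtttg
Ddit4, chr20:28437161-28437185, minus strand: aacgttgcgaACGTGcgcccggtgc
Hilpda, chr4:58836406-58836430, plus strand: tgaaccgcggACGTGcccccggggc

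Glucose uptake and glycolysis genes split. Of 23 tested, 6 were up-regulated (26.1% against 12% of all genes) and 2 were down-regulated (8.70% against 14.5%). The median log2 fold change was 0.29. *Slc2a1*, the glucose transporter GLUT1, rose 2.43-fold, from 25.3, 22.1 and 23.0 to 66.8, 48.9 and 55.6 CPM (log2 fold change 1.28 ± 0.12 (SE), adjusted p = 6.11e-05). *Pfkl*, a phosphofructokinase subunit, rose from 67.2, 71.6 and 70.4 to 178, 132 and 149.8 CPM, while the other subunits *Pfkm* (from 134, 152 and 139 to 61.0, 50.1 and 53.2 CPM) and *Pfkp* (from 52.8, 49.5 and 47.9 to 24.8, 21.1 and 18.3 CPM) both fell. Levels of *Pfkm* and *Pfkp* in hypoxia were thus below every normoxia library, and those of *Pfkl* above. *Tpi1* (log2 fold change 1.06) and the pyruvate kinase *Pkm* (0.70) were up-regulated, and *Aldoa* was too (0.67) but fell under the fold limit with the length trend removed (0.57). *Pgk1* (0.55), *Ldha* (0.40), *Pgam1* (0.40) and *Gapdh* (0.29) passed the adjusted p but stayed below 1.5-fold (*Pgk1* was at 0.62 and called without hypoxia replicate 1), and *Eno1* (0.15, adjusted p = 0.138) passed neither.

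Isoenzymes were compared per kb of gene length. *Slc2a1* was at 9.05 ± 0.624 CPM per kb in normoxia and 22.0 ± 3.51 in hypoxia (SD, n = 3), and *Slc2a3*, the GLUT3 transporter, did not exceed a mean of 0.0656. *Hk1* was at 50.8 ± 1.99 CPM per kb in normoxia and 48.3 ± 5.63 in hypoxia, and *Hk2* at 11.3 ± 0.681 and 14.8 ± 3.23, so *Hk1* remained the more abundant hexokinase. Of the kinases that shut off pyruvate dehydrogenase, *Pdk1* rose from 7.17 ± 0.529 to 13.8 ± 0.933 CPM per kb (adjusted p = 1.38e-04). *Pdk2* was at 16.1 ± 1.46 in normoxia and 10.9 ± 1.54 in hypoxia and missed the fold limit (log2 fold change -0.56, and -0.67 without hypoxia replicate 1). The more abundant of these kinases per kb was therefore *Pdk2* in normoxia and *Pdk1* in hypoxia, by means. *Cox4i2*, the isoform of cytochrome oxidase subunit 4 typical of lung, was at 0.403 ± 0.177 CPM per kb in normoxia and 0.0384 ± 0.0177 in hypoxia, far below *Cox4i1* at 483 ± 12.1 and 524 ± 71.6.

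None of the 28 tested nuclear genes of the respiratory chain and none of the 12 tested mitochondrial ones was called by edgeR or DESeq2, with medians of 0.11 and 0.06 (-0.04 and -0.09 with the length trend removed). At an unadjusted p under 0.05 by edgeR there were 11 and 2. Some alternatives called nuclear genes, at most 2 higher and 1 lower. The fit without hypoxia replicate 1 gave 2 higher and 1 lower, library size alone 2 higher, and the fit without normoxia replicate 1 gave 1 higher. A single gene was called lower in the fit of all libraries, with no filter and with the length trend removed. The same count came without hypoxia replicate 2 or 3 or normoxia replicate 3. Summed mitochondrial respiratory genes were at 29702 to 31429 CPM in normoxia and at 27185 CPM in hypoxia replicate 1 against 41093 and 36282 CPM in the other hypoxia libraries. The hypoxia values thus lay on both sides of normoxia.

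Sterol synthesis genes were lower in hypoxia almost throughout. All 25 members were tested, 23 were down-regulated (92% against 14.5% of all genes) and none was up-regulated (against 12%). The median log2 fold change was -1.59. *Insig1*, which holds the sterol sensor in the endoplasmic reticulum, fell from 113, 117 and 113 to 16.0, 17.6 and 18.0 CPM (log2 fold change -2.73 ± 0.08 (SE), adjusted p = 2.29e-07). *Hmgcs1*, which acts early in the pathway, fell from 249.7, 251 and 259.9 to 74.9, 81.6 and 82.2 CPM (log2 fold change -1.67 ± 0.07 (SE), adjusted p = 1.08e-06). *Dhcr7*, which acts late in it, fell from 16.6, 22.2 and 20.8 to 3.66, 2.06 and 2.57 CPM (7.19-fold). The decrease included *Sqle*, the squalene epoxidase (-1.21), the lipid carrier *Stard4* (-2.81) and *Srebf2* (-1.52), the transcription factor that activates these genes. All 25 members were separate between groups, as were 57.4% of all genes tested. The 2 that missed the call were *Pmvk* (log2 fold change -0.21, adjusted p = 0.0738) and *Tm7sf2* (-0.27, adjusted p = 0.159), the latter overlapping another gene. Counts for the list stayed at 0 up and 23 down without hypoxia replicate 1 and with the length trend removed.

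Fatty acid genes followed in part, with 6 of 11 tested down-regulated (54.5% against 14.5% of all genes) and a median of -0.71. *Scd*, the stearoyl-CoA desaturase, fell from 5.54, 7.12 and 6.54 to 0.868, 0.811 and 0.424 CPM (log2 fold change -3.19 ± 0.27 (SE), adjusted p = 3.47e-05). The desaturases *Fads1* (log2 fold change -1.503) and *Fads2* (-1.53), the fatty acid synthase *Fasn* (-1.26) and the ATP-citrate lyase *Acly* (-0.80) fell as well. *Srebf1*, the factor for this branch, was at 57.3, 54.2 and 58.0 CPM in normoxia and 68.5, 49.0 and 53.2 CPM in hypoxia (adjusted p = 0.954), in a locus shared with another gene. The sterol regulatory letters TCACNCCAC were in 1.12% of all promoters and in 0 of 17 promoters of sterol genes, which says only that these letters are not in this window.

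**Figure D3:**
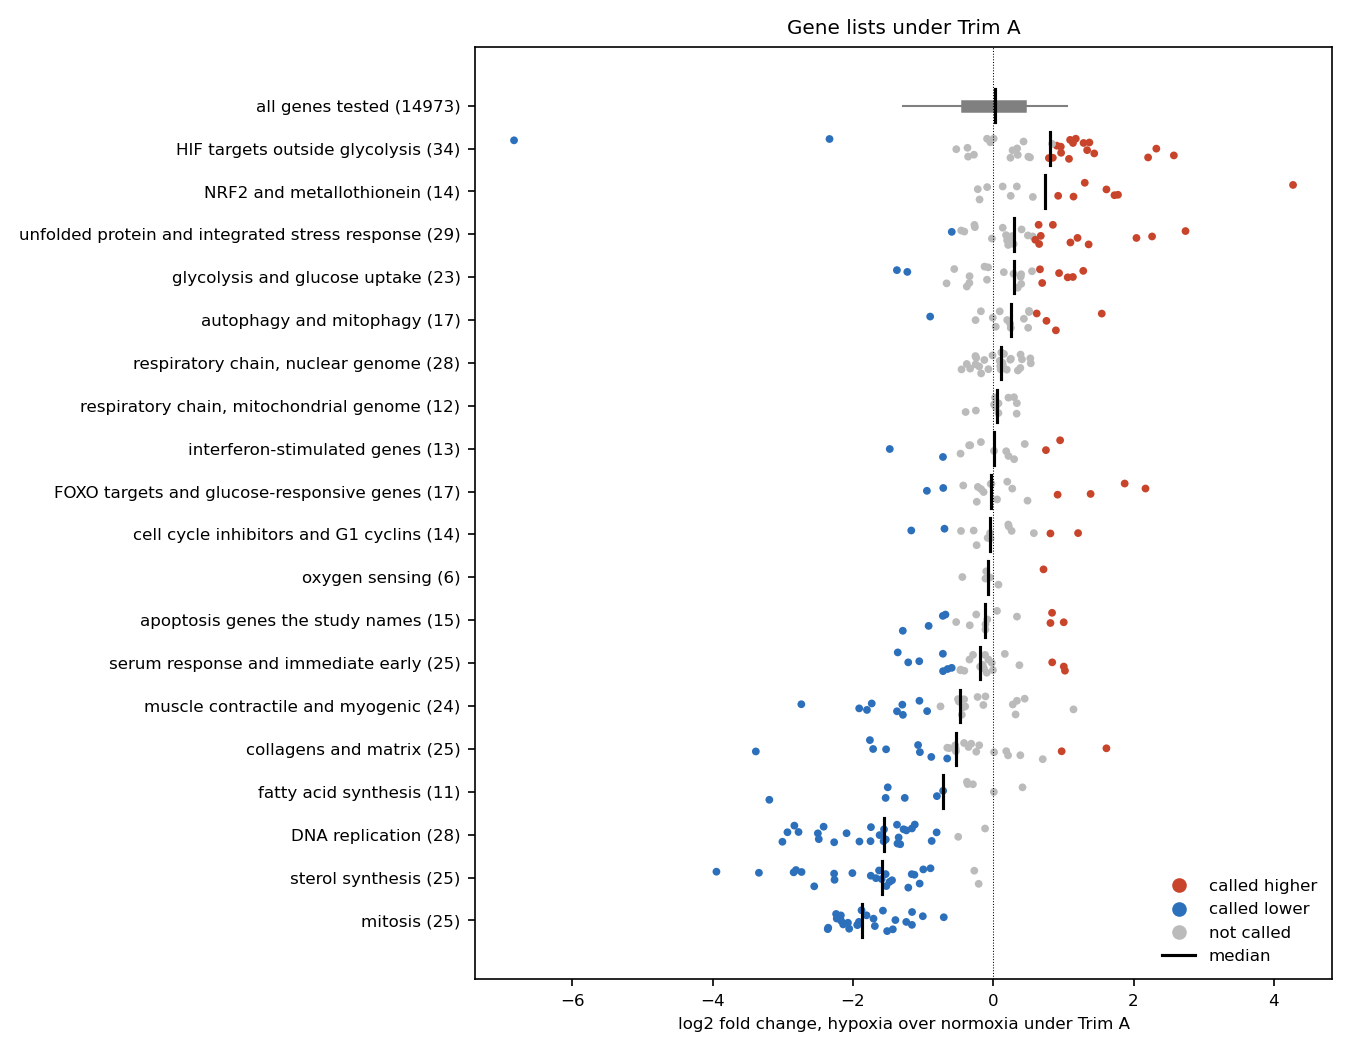
Log2 fold change in hypoxia over normoxia (horizontal axis) of each tested gene in 19 lists (rows, number tested in brackets), with red for called higher, blue for called lower, grey for not called and a black bar at the median. The top row shows all 14973 genes by their median, quartiles and 5th to 95th percentiles. Mitosis (median -1.88), sterol synthesis (-1.59) and DNA replication (-1.56) lie almost wholly to the left and HIF targets (0.82) mostly to the right; *Ak4*, with 0 counts in normoxia, is counted in the median but has no point.

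All 25 tested mitotic genes were down-regulated (100% against 14.5% of all genes), with a median log2 fold change of -1.88. *Bub1b*, of the spindle checkpoint, fell from 87.0, 84.3 and 81.0 to 16.8, 16.8 and 15.6 CPM (log2 fold change -2.36 ± 0.08 (SE), adjusted p = 3.06e-07). *Plk1*, a mitotic kinase, fell from 179, 171 and 166 to 36.8, 32.5 and 31.9 CPM (5.11-fold). *Mki67*, the common marker of proliferation, fell from 271, 284 and 288 to 74.7, 66.9 and 59.3 CPM (log2 fold change -2.07 ± 0.10). The 3 hypoxia libraries were below every normoxia library for each of the 25 genes, and the groups were separate in 57.4% of all genes tested. *Cdc20*, which activates the anaphase-promoting complex (log2 fold change -2.17), *Top2a* (-2.05), *Ccnb1* (-1.69) and *Cdk1* (-1.43) lay within the list's range, whose smallest change was that of *Birc5* (-0.70). In bulk RNA, fewer dividing cells and less RNA per cell cannot be told apart.

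DNA replication genes fell to a like extent, with 26 of 28 tested down-regulated (92.9% against 14.5% of all genes) and a median of -1.56. *Tk1*, the thymidine kinase, fell 8.03-fold, from 105, 115 and 107 to 14.3, 14.3 and 12.2 CPM (log2 fold change -3.01 ± 0.09 (SE), adjusted p = 2.59e-07). *Cdc6*, which loads the replicative helicase, fell from 21.2, 20.9 and 21.4 to 2.70, 2.81 and 2.80 CPM (log2 fold change -2.93 ± 0.11). *Rrm2*, the regulated subunit of ribonucleotide reductase, fell from 134, 143 and 136 to 19.7, 20.03 and 18.2 CPM (7.13-fold). All 6 helicase genes fell, *Mcm5* (log2 fold change -2.49) and *Mcm6* (-2.42) furthest and *Mcm4* (-1.24) least. The transcription factor *E2f1* fell (-1.35), and *E2f7*, a repressor that E2F itself induces, fell 12.4-fold, from 17.9, 15.1 and 15.9 to 1.27, 1.497 and 1.19 CPM. The sliding clamp *Pcna* (-0.50, adjusted p = 0.0113) missed the fold limit and was called with the length trend removed (-0.64) and without hypoxia replicate 2 (-0.60), and the clamp loader subunit *Rfc4* was at 31.8 ± 1.46 CPM in normoxia and 29.3 ± 5.75 CPM in hypoxia (SD, n = 3).

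In the same promoter windows, the E2F letters TTTNNCGC were in 4.92% of all promoters, 8.45% of those of tested genes, 8.17% of those of down-regulated genes and 11 of 22 of those of replication genes. The letters TTTGAA, the cell cycle homology region of mitotic genes, were in 18.3% of all promoters, 11.7% of those of tested genes, 16.0% of those of down-regulated genes and 13 of 21 of those of mitotic genes. Examples from genes that fell are shown with the matched letters in capitals.
Mcm5, chr19:13488590-13488617, plus strand: agctcagaagTTTCGCGCcaaaacgtcc
Mcm6, chr13:42404474-42404501, minus strand: ggcgtctgctTTTGGCGCgaaattagcg
Gins1, chr3:160184885-160184912, plus strand: gttaagcctaTTTGGCGCcaaagagagg
Cdc20, chr5:137255835-137255860, minus strand: acagttgggtTTTGAAggagccaatg
Mki67, chr1:199952677-199952702, minus strand: gccgttttcgTTTGAAttgggcgggc

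Of 14 regulators of G1 tested, 2 were up-regulated (14.3%) and 2 down-regulated (14.3%), close to the shares of all genes (12% and 14.5%). *Cdkn1a*, encoding the inhibitor p21, rose from 295, 289 and 299 to 692, 673 and 679 CPM (log2 fold change 1.21 ± 0.07 (SE), adjusted p = 3.80e-06). *Ccnd1*, the cyclin induced by serum, fell from 938, 766 and 881 to 397, 374 and 379 CPM (log2 fold change -1.17 ± 0.09 (SE), adjusted p = 2.29e-05). *Ccng1* rose (0.82), *Cdkn2c* fell (-0.69) and *Cdkn1b*, the inhibitor p27, was at 182 ± 10.1 CPM in normoxia and 211 ± 3.59 CPM in hypoxia (SD, n = 3), under the fold limit.

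The serum response and immediate early list had 3 of 25 tested up-regulated (12%, as in all genes) and 7 down-regulated (28% against 14.5%). *Spry4*, a feedback inhibitor of growth factor signalling, fell from 71.3, 62.4 and 64.2 to 29.7, 25.5 and 21.8 CPM (log2 fold change -1.36 ± 0.12). *Ccn1* (-1.21), *Ccn2* (-0.72) and *Etv4* (-1.05) fell, while *Myc* (1.01) and *Klf4* (0.84) rose. *Egr2* was called higher at 1.18 ± 0.683 against 2.39 ± 0.216 CPM (SD, n = 3), a call lost without hypoxia replicate 2 or 3, without normoxia replicate 2 or 3 and in the fit of all libraries. *Id3*, an inhibitor of basic helix-loop-helix factors that growth factors and bone morphogenetic proteins induce, was among the 10 largest decreases, from 246, 233 and 221 to 25.5, 27.9 and 31.4 CPM (8.26-fold). Of 17 FOXO and glucose-responsive genes tested, 4 rose (23.5% against 12% of all genes) and 2 fell (11.8% against 14.5%). *Gadd45a*, a stress gene of growth arrest, rose from 80.0, 79.9 and 78.2 to 256, 306 and 311 CPM (log2 fold change 1.87 ± 0.09 (SE), adjusted p = 1.90e-06). *Klf15* (log2 fold change 2.17), *Pik3ip1* (1.39), an inhibitor of phosphoinositide 3-kinase, and the glucose sensor *Txnip* (0.92) rose, and *Igf1r*, the receptor for insulin-like growth factor, fell (-0.95). *Foxo1* was called lower as well (-0.71), a call lost without hypoxia replicate 2 and in the fit of all libraries.

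Among unfolded protein and integrated stress response genes, 11 of 29 tested were up-regulated (37.9% against 12% of all genes). Down-regulation was called for 1 (3.45% against 14.5%), and the median was 0.29. *Trib3*, a pseudokinase induced by ATF4 and CHOP, rose from 135, 108 and 122 to 475, 515 and 514 CPM (log2 fold change 2.04 ± 0.10 (SE), adjusted p = 1.57e-06). *Ddit3*, encoding CHOP, was at 54.4, 54.6 and 55.2 CPM in normoxia and 214, 294 and 281 CPM in hypoxia (4.81-fold). It overlaps *Mars* on the other strand, which had 62197 counts against 30909 for *Ddit3*. Unstranded reads of the shared stretch cannot be told apart. *Ppp1r15a*, the phosphatase subunit that restores translation, rose from 75.2, 67.5 and 64.6 to 182, 175 and 175 CPM (2.57-fold). The groups were separate for each, and hypoxia replicate 1 was the lowest of its group for *Ddit3* and *Trib3*. *Dnajb9* (log2 fold change 1.20), *Atf3* (1.10), *Sesn2* (0.85) and *Asns* (0.68) rose too. *Atf4* itself rose by 0.65 and *Slc3a2* by 0.60, both under the fold limit once the length trend was removed (0.53 and 0.57). The chaperone *Hspa5* was at 838 ± 24.9 CPM in normoxia and 976 ± 63.8 CPM in hypoxia (SD, n = 3), under the fold limit, and *Calr*, another chaperone of the endoplasmic reticulum, was called lower (-0.59), a call that 4 of the alternatives lost. With the length trend removed, the list gave 8 up and 2 down.

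None of the 10 largest increases (mean of at least 5 CPM, no overlap between groups) was of a gene in the NRF2 and metallothionein list. *Aldh3a1*, an aldehyde dehydrogenase, rose 16.9-fold, from 5.90, 4.73 and 5.84 to 88.2, 98.1 and 92.5 CPM (log2 fold change 4.08 ± 0.11 (SE), adjusted p = 1.51e-07). *Adh7*, an alcohol dehydrogenase that also oxidises retinol, rose 10.4-fold, from 2.59, 1.80 and 2.15 to 21.7, 23.6 and 22.8 CPM (log2 fold change 3.38 ± 0.15). *Hmox1*, the heme oxygenase, which HIF-1 and NRF2 both activate, rose 5.96-fold, from 182, 148 and 171 to 908, 1038 and 1039 CPM (log2 fold change 2.58 ± 0.10 (SE), adjusted p = 7.29e-07). For these 3 genes the hypoxia libraries lay above every normoxia library. In the NRF2 and metallothionein list 7 of 14 tested were up-regulated (50% against 12% of all genes). None was down-regulated (against 14.5%), and the median was 0.75. *Nqo1*, a quinone reductase, rose from 465, 329.8 and 389.8 to 1081, 1272 and 1274 CPM and *Srxn1*, which repairs peroxiredoxins, from 9.91, 9.74 and 10.7 to 32.0, 32.5 and 36.0 CPM. *Gclc*, the catalytic subunit for glutathione synthesis, rose (log2 fold change 1.31), as did *Nfe2l2*, encoding NRF2 (1.14), and the ferritin light chain *Ftl1* (0.93), whereas the partner subunit *Gclm* was at 17.3 ± 0.512 CPM in normoxia and 16.3 ± 1.65 CPM in hypoxia (SD, n = 3). The metallothioneins *Mt1a* and *Mt2A* were called from normoxia means of 0.287 ± 0.227 and 0.0603 ± 0.0761 CPM, too few reads for a fold. Both passed the filter on low counts through their hypoxia libraries, and both are counted among the 7 up-regulated. *Osgin1*, also outside the list, rose 4.76-fold, from 5.72, 6.15 and 5.77 to 29.9, 27.8 and 26.2 CPM. *Gsta1* was called higher (2.06) and is uncertain because it belongs to a family of similar genes between which reads can be split. The NRF2 letters TGACNNNGC were in 12.1% of all promoters, 14.7% of those of tested genes and 17.4% of those of up-regulated genes. Taking a single promoter per symbol, 5 of 11 in the list and 2 of 5 among its called members held them. With every promoter of a symbol, the called members with a match were *Nfe2l2*, *Mt1a* and *Mt2A*.

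The remaining genes among the 10 largest increases were *Ifi27l2b* (from 68.4, 65.0 and 72.3 to 290.02, 415 and 419 CPM), the PDZ-domain gene *Pdzd3* (log2 fold change 2.11) and 5_8S_rRNA (2.69), a ribosomal RNA name shared by 15 identifiers and uncertain in poly-A libraries. Of 13 interferon-stimulated genes tested, 2 were up-regulated (15.4%) and 2 down-regulated (15.4%), close to the shares of all genes. *Ifit2* (0.95) and *Gbp2* (0.75) rose. The call of *Ifit1* (-0.72), at 1.67 ± 0.138 against 1.02 ± 0.165 CPM (SD, n = 3), was lost in 8 alternatives. *Il1rl1*, the receptor for interleukin 33, was among the 10 largest decreases, 8.98-fold, from 29.3, 27.0 and 22.2 to 2.88, 3.15 and 2.71 CPM.

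The apoptosis genes the study names were examined by it in cells with these mimics, so the list is not independent evidence of a direction. It includes *Actb*, a reference gene. Of 15 tested, 3 were up-regulated (20% against 12% of all genes) and 4 were down-regulated (26.7% against 14.5%). The pro-apoptotic *Bax* rose from 133, 139 and 137 to 204, 262 and 254 CPM (log2 fold change 0.82 ± 0.10 (SE), adjusted p = 2.89e-04). *Tp53inp1* rose (0.84) and its relative *Tp53inp2* fell (-0.92), both regulators of autophagy. *Bak1*, a pro-apoptotic partner of *Bax* and a known miR-125b target, was at 46.8, 52.3 and 48.3 CPM in normoxia and 43.2, 42.1 and 39.3 CPM in hypoxia, separate between groups but under the fold limit. *Bcl2l11*, encoding BIM (log2 fold change 0.05, adjusted p = 0.714), and *Bmf* (-0.09, adjusted p = 0.672) overlapped between groups. *Traf6* (-0.53), *Casp2* (-0.33) and *Dram2* (0.34) were under the fold limit. The calls of *Tnfrsf1b* (-1.29) and *Klf13* (-0.72), both at low levels, were lost in at least 1 alternative. *Actb* was 1 of the 4 that fell, from 5242, 5354 and 4926 to 3239, 3315 and 3129 CPM (-0.68).

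Autophagy genes were up-regulated in 4 of 17 tested (23.5% against 12% of all genes) and down-regulated in 1 (5.88% against 14.5%). *Sqstm1*, the cargo receptor p62 and also an NRF2 target, rose 2.92-fold, from 559, 531 and 542 to 1537, 1605 and 1628 CPM (log2 fold change 1.55 ± 0.07 (SE), adjusted p = 1.40e-06). *Pink1*, the kinase that marks damaged mitochondria, rose (0.89), as did *Map1lc3b* (0.76) and *Gabarapl1* (0.62), which coat autophagosomes, the last falling under the fold limit in 3 alternatives. *Optn*, a receptor for mitophagy, fell from 54.7, 53.0 and 54.4 to 29.9, 29.0 and 28.0 CPM (-0.90).

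Of 24 muscle genes tested, 9 were down-regulated (37.5% against 14.5% of all genes) and none was up-regulated (against 12%), with a median of -0.47. *Myod1*, the factor that commits cells to skeletal muscle, fell from 150.3, 132 and 138 to 41.9, 33.8 and 36.3 CPM (log2 fold change -1.91 ± 0.10 (SE), adjusted p = 2.61e-06). *Cnn1*, a smooth muscle calponin, fell from 512, 532 and 488 to 185, 223 and 216 CPM (2.46-fold), and *Tnnc2*, a fast skeletal troponin, from 51.3, 67.3 and 56.4 to 17.7, 24.9 and 24.98 CPM (2.59-fold). *Lmod3*, which nucleates actin filaments in striated muscle, fell 12.2-fold, from 54.7, 45.4 and 48.8 to 3.50, 4.87 and 3.87 CPM. *Acta1* (log2 fold change -0.40) and *Myog* (-0.43), the factor of terminal differentiation, passed the adjusted p but not the fold limit. *Tnnt2*, cardiac troponin T, was at 23.8, 45.0 and 24.7 CPM in normoxia and 28.7, 28.0 and 29.8 CPM in hypoxia, with overlapping groups (adjusted p = 0.703). *Acta2* stayed the most abundant muscle gene, at 8829.9 ± 299 CPM in normoxia and 8009 ± 179.9 CPM in hypoxia (SD, n = 3).

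The cell type was checked by markers. The 10 markers of myoblasts and cardiac muscle summed to 234 to 261 CPM in normoxia and 115 to 129 CPM in hypoxia. Nearly all of this was *Myod1*, *Myog*, *Tnnt2* and *Gata4*, so that little was left for *Des*, *Myf5* and *Nkx2-5*. The skeletal myoblast factor *Myod1* was abundant in normoxia. *Gata4*, a factor of heart development, was at 15.0 ± 1.63 CPM in normoxia and 12.3 ± 0.730 CPM in hypoxia (SD, n = 3). *Myh6*, *Actc1*, *Nppa* and *Myh7*, genes of cardiac muscle, were each under 1 CPM. *Tnnt2*, another cardiac marker, was expressed in every library at the levels given above, so the cardiac markers did not agree. *Myh6* was called higher with the length trend removed (1.34), with library size alone and without normoxia replicate 1, and not otherwise. Markers of endothelium (*Tie1*, the only 1 of 4 matched) did not exceed 0.141 CPM and leukocyte markers summed to 2.52 to 3.17 CPM in normoxia and 0.791 to 1.74 CPM in hypoxia. Epithelial markers summed to 33.8 to 45.6 CPM in normoxia and 76.6 to 80.0 CPM in hypoxia, nearly all of it *Krt8*, with *Epcam* and *Cdh1* near 0. Fibroblast markers (3 of 5 tested) summed to 24530 to 25396 CPM in normoxia, to 23169 CPM in hypoxia replicate 1 and to 11441 and 12839 CPM in the other hypoxia libraries, nearly all of it *Col1a1*, which the matrix list also holds. Smooth muscle markers, mostly *Acta2* and *Tagln*, summed to 12649 to 13462 CPM in normoxia and 10659 to 11915 CPM in hypoxia. The part of these markers in the results was not tested.

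Collagen and matrix genes were down-regulated in 8 of 25 tested (32% against 14.5% of all genes) and up-regulated in 2 (8% against 12%). The median was -0.53, and these counts depended on hypoxia replicate 1. *Tnc*, encoding tenascin C, was at 54.7, 72.6 and 56.5 CPM in normoxia and 8.15, 4.62 and 4.86 CPM in hypoxia (log2 fold change -3.38 ± 0.22 (SE), adjusted p = 7.28e-06). *Col1a2* fell from 4694, 3791 and 4056 to 1823, 2073 and 2072 CPM (log2 fold change -1.07 ± 0.10). Neither gene overlapped between groups, and hypoxia replicate 1 was the highest of its group for *Tnc* and the lowest for *Col1a2*. *Thbs1*, a matrix protein that activates TGF-β, was at 5527, 5365 and 5732 CPM in normoxia and 2292, 1273 and 1351 CPM in hypoxia (log2 fold change -1.76, and -2.08 without hypoxia replicate 1). *Fn1*, fibronectin, was at 9324, 10493 and 10135 CPM in normoxia and 9857, 4529 and 5024 CPM in hypoxia. In *Thbs1* hypoxia replicate 1 lay between the groups and in *Fn1* at the level of normoxia.

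*Fn1* was not called with all libraries (log2 fold change -0.63, adjusted p = 0.0722) and was called without hypoxia replicate 1 (-1.07, adjusted p = 3.64e-07) and in 2 other alternatives. *Col1a1* was called with all libraries (-0.66, adjusted p = 0.0421), at -1.04 without hypoxia replicate 1, and the call was lost in 8 alternatives. These were DESeq2 (adjusted p = 0.0949), library size alone (0.0713), removal of the length trend (-0.49) and the fits without hypoxia replicate 2 or 3 or without any 1 of the normoxia libraries (adjusted p = 0.091 to 0.131). *Col6a3* (-1.71, and -2.25 without that library), *Col12a1* (-1.53, and -1.97) and *Timp1* (-1.05), which overlaps another gene, fell. *Dcn*, encoding decorin, rose (1.61), and *Fmod*, fibromodulin, was called higher (0.98) but lost the call in 4 alternatives, among them the fits without hypoxia replicate 1 (0.64, adjusted p = 0.0829), normoxia replicate 1 (adjusted p = 0.115) and normoxia replicate 3 (0.109). The list counted 2 up and 13 down without hypoxia replicate 1 and 2 up and 7 down with the length trend removed. *Smoc1*, a secreted calcium-binding matrix protein outside the list, fell 11.95-fold, from 23.2, 22.3 and 23.6 to 1.98, 1.75 and 2.04 CPM.

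Whether hypoxia acted differently under Trim A than under the mimics with other 3′ ends was tested by the difference of log2 fold changes in fits of 12 libraries. All 3 tests share the 6 Trim A libraries, and CPM were rescaled in each fit. The difference from miR-125b was called in 94 of 15534 genes (0.605%), from Plus A in 22 of 15559 (0.141%) and from Trim AG in 175 of 15605 (1.12%). In these fits, normoxia replicate 1 of miR-125b and of Plus A goes against its label. *Cav1*, encoding caveolin 1, was at 102, 282 and 263 CPM in the normoxia libraries labelled miR-125b and at 269, 98.0 and 98.3 CPM in those labelled Plus A, so that replicate 1 of each resembled the other group.

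Against Trim AG, which lacks 1 further base, the difference in log2 fold change was above 0 for 68 genes and below 0 for 107. *Trib3* was at 136, 109 and 122 CPM in normoxia and 479, 517 and 516 in hypoxia under Trim A, and at 47.4, 38.7 and 44.0 and 570.4, 532 and 539 CPM under Trim AG. The log2 fold changes were 2.04 and 3.69, a difference of -1.61 ± 0.13 (SE), adjusted p = 9.06e-05, and the mimics were separate in normoxia. *Tgfb3* was at 520.5, 583 and 502 CPM in normoxia and 114, 103 and 102 in hypoxia under Trim A, and at 471, 607 and 515 and 346, 321 and 339 CPM under Trim AG, a difference of -1.67 ± 0.14 (SE), adjusted p = 9.06e-05. Here normoxia overlapped between mimics and hypoxia did not. *Myog* was at 47.6, 65.9 and 52.5 CPM in normoxia and 43.0, 39.9 and 40.4 in hypoxia under Trim A and at 40.0, 52.6 and 41.4 and 11.5, 10.4 and 11.4 under Trim AG, a difference of 1.58 ± 0.18 (SE), adjusted p = 0.00102. *Klhl41*, a protein of the sarcomere's thin filament, was lower in hypoxia under both, with log2 fold changes of -2.74 and -3.84 (difference 1.14).

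*Cox6a2*, the muscle form of a cytochrome oxidase subunit (difference -1.86), and the inflammatory caspase *Casp4* (difference -1.36, from log2 fold changes of 1.20 and 2.59) were higher in hypoxia by a smaller amount under Trim A than under Trim AG. *Mbnl3*, a splicing regulator (-0.17 and -1.41), and *Map3k7cl* (-0.88 and -2.74) were lower in hypoxia by a smaller amount under Trim A. These differences were called in all 12 fits that left out 1 library. *Bgn*, the proteoglycan biglycan (-0.31 and -1.83), was called in only 2 of 12.

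Against miR-125b and Plus A the differences were less secure. *Tnnt2* was at 23.9, 45.3 and 24.9 CPM in normoxia and 28.7, 28.1 and 30.0 in hypoxia under Trim A, and at 13.3, 9.46 and 13.2 and 40.3, 39.6 and 41.8 CPM under miR-125b (difference -1.88 ± 0.28 (SE), adjusted p = 0.0181). Under Plus A *Tnnt2* was at 9.84, 12.5 and 15.8 CPM in normoxia and 45.1, 43.5 and 49.0 in hypoxia (difference -1.96 ± 0.29 (SE), adjusted p = 0.0237). *Tnnt2* was thus lower in normoxia and higher in hypoxia under both other mimics than under Trim A, and its Trim A normoxia replicate 2 was the highest of its group. *Tnc* had log2 fold changes of -3.38 under Trim A, -1.52 under miR-125b and -1.86 under Plus A. *Olfml2b* was lower in hypoxia under Trim A (-1.66) and somewhat higher under miR-125b (0.59) and Plus A (0.35), and *Col6a3* differed from miR-125b by -1.88. *Adh7*, *Ddit3* and *Hmox1* rose further under Trim A, by 1.25 and 0.87 against miR-125b and by 0.82 against Plus A. Compared with Trim AG, *Ddit3* (difference -1.10, adjusted p = 0.00983) and *Hmox1* (-0.63, adjusted p = 0.0447) rose less under Trim A. The *Ddit3* differences carry the limit of its overlap with *Mars*.

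Against miR-125b, edgeR called no gene in 5 of the 12 fits without 1 library (2591 to 3062 genes at an unadjusted p under 0.05). These left out Normoxia miR-125b replicate 1 or 2, Hypoxia miR-125b replicate 2 or 3, or Hypoxia Trim A replicate 3. Against Plus A the count was 0 in 4 of 12 (2528 to 3071 at an unadjusted p under 0.05), those without Hypoxia Plus A replicate 1 or 2 or Hypoxia Trim A replicate 2 or 3, and it was 14 without the library labelled Normoxia Plus A replicate 1. Leaving out Hypoxia Trim A replicate 1 raised the counts to 1141 and 1469. That library lay nearer to the hypoxia libraries of miR-125b and Plus A than to the others of Trim A. The part of this in the counts was not tested. With all 12 libraries DESeq2 called 373 genes against miR-125b and 467 against Plus A.

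**Figure D4:**
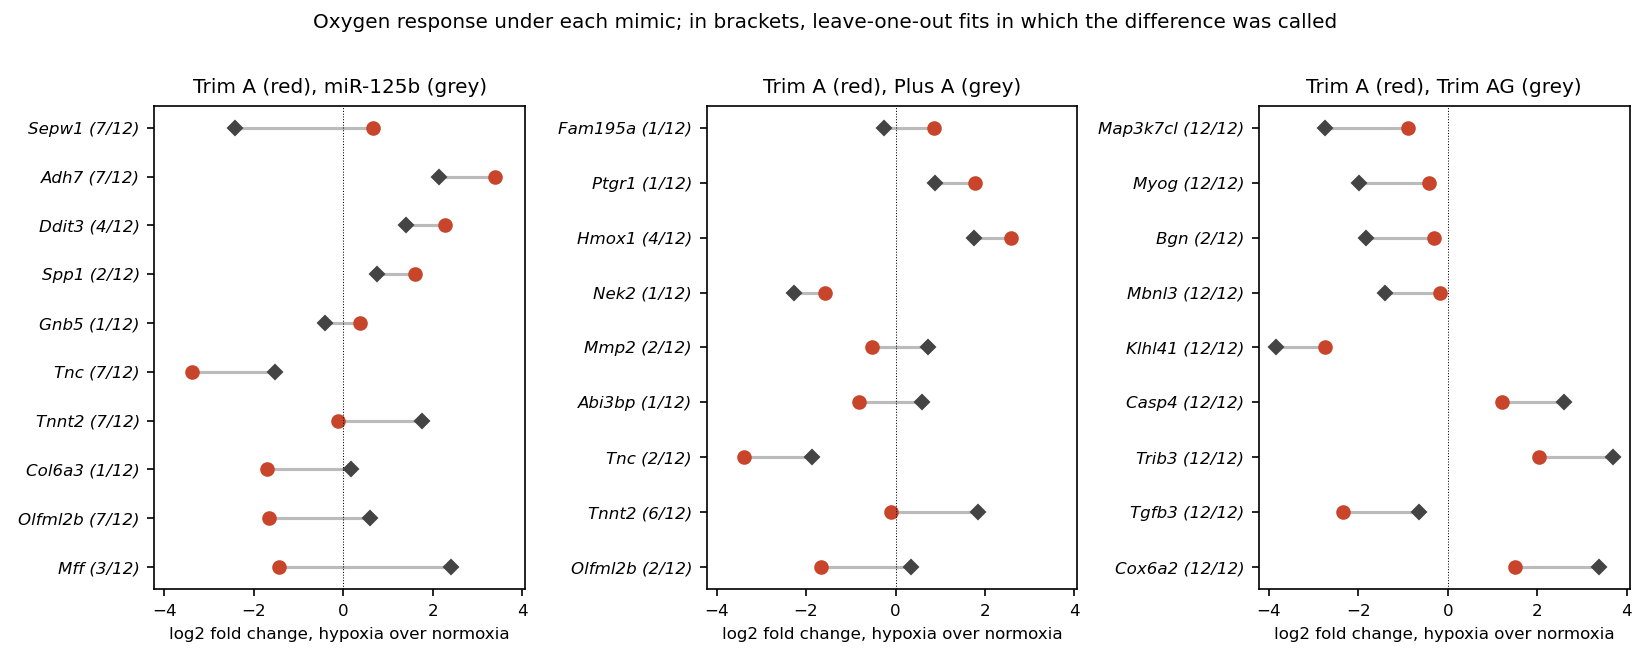
Log2 fold change in hypoxia over normoxia (horizontal axis) under Trim A (red circles) and under miR-125b, Plus A or Trim AG (grey diamonds, 1 panel each) for genes among those with the largest called differences, with the number of the 12 leave-one-out fits that called each difference in brackets. Of those shown against Trim AG all but *Bgn* were called in all 12; no gene shown was called in more than 7 of them against miR-125b or more than 6 against Plus A.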

How the data were processed

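The authors deposited tables of read counts per gene, not normalised, for 33 libraries used here; their submission notes name HISAT2 and StringTie, and the genome build and the counting settings are not given in the sources used here. Counts of 6 Trim A libraries and, for tests of a difference between responses, of 6 libraries of miR-125b, Plus A or Trim AG were taken as deposited. FPKM columns and the authors' comparison columns (fold changes and p-values) were not used, and 27 count columns repeat libraries read from another table. Rows without a gene symbol kept their identifier.

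Genes were filtered with edgeR's filterByExpr, scaled by TMM and tested with edgeR 4.0.16 (quasi-likelihood F test, R 4.3.3), with p-values adjusted by Benjamini-Hochberg over all genes tested. A call needed an adjusted p under 0.05 and a fold change of at least 1.5. SE was derived from F, as the size of the log2 value divided by √F. Counts of 28361142 to 34505916 per library set the precision, and PCR duplicates cannot be separated. Levels between genes were compared as CPM per kb of the deposited gene length. Promoters and microRNAs were read from RefSeq (GRCr8) tables by symbol. Motif counts for tested genes and lists took a single promoter per symbol, and the share of all promoters took every entry. Scripts were tested on simulated data.

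Alternatives were DESeq2 1.42.0, library size alone, median-ratio scaling, no filter on low counts, fold limits of 2 or none, a fit of all libraries, a replicate block, and leaving out each library. Replicate numbers did not pair the hypoxia with the normoxia libraries of Trim A: deviations of same-numbered libraries correlated at -0.061, -0.012 and -0.0082. Pairing by number between mimics was not tested. In hypoxia replicates 1, 2 and 3, mitochondrial genes took 3.41%, 5.01% and 4.47% of counts under Trim A. The shares were 3.52%, 5.29% and 4.57% under Trim AG, in the same order. They were 3.58%, 3.55% and 3.46% under miR-125b and 3.83%, 3.39% and 3.25% under Plus A, in another order. The genes named were the 10 largest increases and 10 largest decreases among calls with a mean of at least 5 CPM, no overlap between groups and a gene symbol, the 5 largest each way in each difference between mimics, and regulators, rate-limiting members and the up to 6 most changed members of each list, with the study's apoptosis genes, isoenzyme pairs and *Cav1*. The libraries, lists and rules were chosen with earlier results of these data known. A few genes that meet these rules are not reported here.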

Additional observations from a re-analysis of the deposited data

Results flagged for a closer look

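The response to hypoxia under Trim A was tested for a difference from the response under each other mimic, and genes past the threshold are given here with the log2 difference (Trim A minus the other mimic). There were 94 against miR-125b, 22 against Plus A and 175 against Trim AG.

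Against Trim AG the larger values were *Map3k7cl* 1.89, *Myog* 1.58, *Bgn* 1.54, *Mbnl3* 1.27 and *Klhl41* 1.14, and the smaller ones *Cox6a2* -1.86, *Tgfb3* -1.67, *Trib3* -1.61 and *Casp4* -1.36. All but *Bgn* were called in each of 12 fits without 1 library.

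Against miR-125b the larger values were *Sepw1* 3.10, *Adh7* 1.25, *Ddit3* 0.87, *Spp1* 0.87 and *Gnb5* 0.77, and the smaller ones *Mff* -3.85, *Olfml2b* -2.25, *Col6a3* -1.88, *Tnnt2* -1.88 and *Tnc* -1.86. *Ddit3* overlaps *Mars* on the other strand. *Sepw1* was at 2.92, 3.79 and 2.45 CPM in normoxia and 6.94, 3.54 and 4.08 in hypoxia under Trim A, and at 32.1, 21.9 and 11.7 and 4.18, 3.73 and 4.25 under miR-125b. *Mff* was at 5.48, 14.3 and 15.5 and 2.91, 7.11 and 2.98 under Trim A, and at 6.29, 6.67 and 3.13 and 40.8, 30.1 and 14.2 under miR-125b, so both spread widely within a group.

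Against Plus A the larger values were *Fam195a* 1.12, *Ptgr1* 0.89, *Hmox1* 0.82 and *Nek2* 0.68, and the smaller ones *Olfml2b* -2.02, *Tnnt2* -1.96, *Tnc* -1.53, *Abi3bp* -1.42 and *Mmp2* -1.26. The part of the libraries labelled Normoxia replicate 1 of both mimics and of Hypoxia Trim A replicate 1 in these single values was not tested beyond the fits without each.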

How the results depend on the processing

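The Trim A comparison gave 3969 calls and stayed within 1.5 times of that under every alternative but the fold limit, which gave 1848 calls (722 up, 1126 down) at 2-fold and 7126 (3499 up, 3627 down) with none. Without 1 library each, up-regulated genes numbered 1536 to 2091 and down-regulated 1996 to 2564. Library size alone gave 2213 up and 1868 down. Of 175 named genes 153 kept their side of the threshold in every alternative at the 1.5-fold limit, and none of the 175 turned its direction as a called gene. Single genes were not counted at the other fold limits.

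Differences between mimics were less stable. Against miR-125b (94 calls) DESeq2 gave 373, a 2-fold limit 41, no filter 184, removal of the length trend 220, and leaving out 1 library each 0 to 1141. Against Plus A (22 calls) the values were 467 with DESeq2, 14 at 2-fold, 288 without the filter and 0 to 1469 without 1 library each. Against Trim AG (175 calls) they were 348 with DESeq2, 56 at 2-fold and 85 to 235 without 1 library each. The cause was not tested. The replicate block gave 0 calls by edgeR against miR-125b (3159 at an unadjusted p under 0.05), 54 against Plus A and 170 against Trim AG. In the Trim A comparison, where the numbers did not pair the samples, the block gave 1685 up and 2154 down. Removal of the gene length trend was chosen after seeing the data. Counts of 3 libraries a group limit what can be said of genes near 1 CPM.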
